A study of Mus musculus with 10 samples.

Results

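The cytochrome P450 genes of the mouse were followed in the testis after an injection of TSA, trichostatin A, which blocks histone deacetylase enzymes. They were taken as every array probe with 1 gene symbol that begins with Cyp and a number, which gave 48 probes for 48 genes among the 10012 probes of the table. The symbols were divided by family: 3 genes of the families of steroid and sterol synthesis (Cyp11a1, Cyp17a1 and Cyp51), 31 genes of families 2, 3 and 4, which in the liver act mainly on drugs, fatty acids and other small molecules, and 14 genes of other families. None of the 48 probes belonged to family 19, the aromatase.

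The mice were BALB/c males of 9 weeks, 15 in all, in 5 groups of 3. Control mice were given only the DMSO and PBS carrier and killed at 10 h, and each of the 4 TSA groups received 60 µg per mouse by 1 subcutaneous injection and was killed at 2.5, 5, 7.5 or 10 h. The testis RNA from each group's 3 mice was mixed into 1 pool and hybridised to 2 CodeLink 1-channel arrays, so each group has n = 1 with duplicate technical arrays. All 4 TSA pools were compared with the same control pool, and only the 10 h pool matched it in the time of killing, so time after TSA and the hour of killing cannot be told apart in the others.

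P450 enzymes carry a heme group and insert an oxygen atom into a substrate with electrons passed on by a reductase in the endoplasmic reticulum or by ferredoxin in mitochondria. In the testis, Leydig cells make testosterone with Cyp11a1, which cuts the side chain of cholesterol to give pregnenolone, and Cyp17a1, which turns progestins into androgen precursors. Cyp51 removes a methyl group from lanosterol on the way to cholesterol, and its RNA is also abundant in male germ cells. Many genes of families 1 to 4, and Cyp7a1, Cyp7b1 and Cyp8b1 of bile acid synthesis, are known mostly from hepatocytes.

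Values are the deposited normalised intensities, on a scale whose median over all probes was 1.00. Of the 48 probes, 25 were compared and 23 were too dim, with a mean level within the lowest 25% of all probes (mean intensity up to 0.207). Levels of different probes are not set against each other, since probes bind with different strength. Duplicate arrays of a pool correlated between 0.995 and 0.998 across the 7422 compared probes, and so few arrays set the precision of each value. A probe met the size rule where its log2 fold against control was at least 1 in size and both arrays of the TSA pool lay beyond both control arrays. With 1 pool a group this rule is a description without a p-value. A standard error (SE) of a fold comes from the duplicate arrays and leaves out the spread between mice. In whole testis RNA, fewer cells of a type and less RNA per cell cannot be told apart.

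The P450 genes of steroid and sterol synthesis stayed close to control at all 4 times. None of the 3 met the size rule in any TSA pool, and their folds ran from -0.16 to 0.38 on the log2 scale. The intensity of Cyp17a1 was 83.2 and 88.8 on the control arrays, 110.5 and 97.7 at 2.5 h, 90.6 and 93.4 at 5 h, 88.1 and 87.4 at 7.5 h, and 97.7 and 100.4 at 10 h. All 4 TSA pools lay above the control mean, and the 7.5 h arrays lay between the control arrays. The log2 fold of Cyp17a1 was 0.27 ± 0.10 (SE) at 2.5 h, 0.10 ± 0.052 at 5 h, 0.03 ± 0.047 at 7.5 h and 0.21 ± 0.051 at 10 h.

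Cyp11a1, the first enzyme of the pathway, read 3.39 and 3.94 in the control, 4.70 and 4.83 at 2.5 h, 4.20 and 3.99 at 5 h, 3.32 and 3.23 at 7.5 h, and 3.61 and 3.54 at 10 h. The 2.5 h and 5 h arrays lay above both control arrays, the 7.5 h arrays below both, and the 10 h arrays between them. Cyp51 read 13.9 and 14.6 in the control, 14.1 and 13.3 at 2.5 h, 14.3 and 14.9 at 5 h, 15.4 and 15.0 at 7.5 h, and 16.5 and 17.4 at 10 h. Its 7.5 h and 10 h arrays lay above both control arrays, while the earlier ones overlapped them. The 10 h fold of Cyp51 was 0.25 ± 0.053 on the log2 scale.

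A test over the 5 pools, with limma on the pool means and the 4 TSA pools against the lone control pool, passed none of these 3 genes. The estimated log2 difference was 0.09 ± 0.21 (SE) for Cyp11a1 (limma, adjusted p = 0.805), 0.15 ± 0.13 for Cyp17a1 (limma, adjusted p = 0.485) and 0.08 ± 0.14 for Cyp51 (limma, adjusted p = 0.734). At unadjusted p under 0.05 the count was also 0 of 3. The sign of the Cyp11a1 estimate turned without the 2.5 h pool (-0.0087), and that of Cyp17a1 turned to -0.062 with another centring of the arrays, by probes of like ID number.

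Cyp21a1, the steroid hydroxylase that leads to corticosteroids in the adrenal cortex, was too dim to be compared. It read 0.269 and 0.281 in the control, 0.196 and 0.192 at 2.5 h, 0.216 and 0.211 at 5 h, 0.131 and 0.135 at 7.5 h, and 0.124 and 0.119 at 10 h. Every TSA array lay below both control arrays. Most of these values were at or under the intensity limit of 0.207, so no fold is given.

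**Figure D1:**
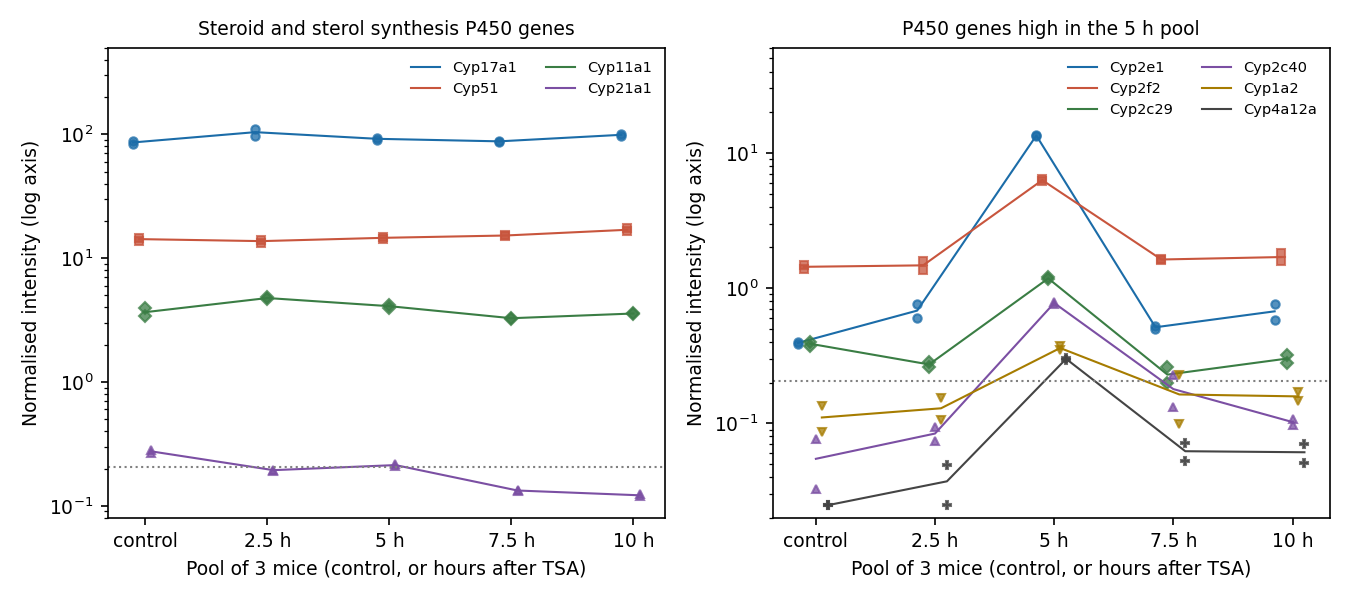
Normalised intensity (log axis) of P450 probes in the control pool and the TSA pools, with hours after injection on the x axis; points are the 2 arrays of a pool, lines join pool means, and the dotted line is the dim limit of 0.207. The left panel holds Cyp17a1, Cyp51, Cyp11a1 and Cyp21a1, and the first 3 run nearly level; the right panel holds Cyp2e1, Cyp2f2, Cyp2c29, Cyp2c40, Cyp1a2 and Cyp4a12a, each of which peaks in the 5 h pool.

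The rest of the steroid pathway was read from a list of 34 genes, of which 22 were measured and 16 compared. None of the 16 met the size rule in any TSA pool, and none passed the limma test of the TSA pools. Their median log2 fold was 0.17 at 2.5 h, 0.07 at 5 h, -0.05 at 7.5 h and 0.11 at 10 h, against medians of all compared probes between -0.03 and 0.01. Star, which carries cholesterol to the inner mitochondrial membrane, read 3.37 and 3.08 in the control, 3.09 and 2.98 at 2.5 h, 2.54 and 2.57 at 5 h, 1.79 and 1.66 at 7.5 h, and 3.59 and 3.56 at 10 h. It was lowest at 7.5 h, and so were Hsd3b1 and Hsd3b6, dehydrogenases of the step after Cyp11a1. Hsd3b6 averaged 9.96 in the control and 12.8, 10.3, 7.91 and 11.4 at 2.5, 5, 7.5 and 10 h, and Hsd3b1 averaged 4.46 in the control and 5.79, 4.58, 3.57 and 5.50. Hsd17b3, which makes testosterone from androstenedione, averaged 16.7 in the control and 18.2 to 20.1 in the TSA pools.

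Of the 6 measured genes of that list too dim to compare, 2 left the dim range at 5 h. Hsd3b5, a relative of Hsd3b1 known from male mouse liver, read 0.0858 and 0.0374 in the control, 0.768 and 0.614 at 5 h and no more than 0.145 at the other times. Hsd11b1, which reactivates glucocorticoids in liver and fat, read 0.0649 and 0.0419 in the control, 0.382 and 0.398 at 5 h and no more than 0.120 elsewhere. Against the intensity limit these were at least 3.34-fold and 1.89-fold higher than control.

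All 8 measured genes of a Leydig cell list of 12, Cyp11a1 and Cyp17a1 among them, were bright enough to compare, and none met the size rule in any pool. Their summed intensity was 161.5 to 168.1 on the control arrays, 187.4 to 206.0 at 2.5 h, 171.4 to 172.0 at 5 h, 159.1 to 161.7 at 7.5 h and 182.6 to 186.5 at 10 h. The sum is carried mostly by Cyp17a1 and Fdx1. Fdx1, the ferredoxin that hands electrons to Cyp11a1, averaged 35.9 in the control, 43.1 at 2.5 h, and 34.1 to 39.5 at the later times.

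The 5 h pool gave the other pattern. In it 4 of the 16 compared genes of families 2, 3 and 4 met the size rule, all of family 2 and all higher: Cyp2e1, Cyp2f2, Cyp2c29 and Cyp2g1. Over all 7422 compared probes 1.21% were higher by this rule at 5 h and 0.337% lower. At each other time only Cyp2g1 of the P450 genes met it, where 0.674% of all probes were higher and 0.243% lower at 2.5 h, 1.01% and 0.903% at 7.5 h, and 1.23% and 1.44% at 10 h. Both control arrays of Cyp2g1 were under the intensity limit, so its fold at 5 h is only known to be at least 1.57. With 0.25 added before log2 it met the rule in no pool.

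Cyp2e1, which oxidises ethanol and acetone and is abundant in hepatocytes around the central vein, differed most. Its intensity was 0.400 and 0.388 in the control, 0.762 and 0.602 at 2.5 h, 13.4 and 13.5 at 5 h, 0.500 and 0.527 at 7.5 h, and 0.582 and 0.766 at 10 h. The 5 h arrays stood far above the other 8, and the other TSA arrays also lay above both control arrays. The 5 h level was 34.2 times the control, a log2 fold of 5.09 ± 0.023 (SE), beside 0.78 ± 0.17 at 2.5 h, 0.38 ± 0.044 at 7.5 h and 0.76 ± 0.20 at 10 h. With an offset of 0.25 added before log2, which pulls in the folds of dim probes, the 5 h value was 4.41.

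Cyp2f2, which oxidises naphthalene in club cells of the lung and is also found in liver, read 1.39 and 1.49 in the control, 1.58 and 1.37 at 2.5 h, 6.22 and 6.37 at 5 h, 1.65 and 1.61 at 7.5 h, and 1.57 and 1.82 at 10 h. The 5 h arrays were alone above 2, and the 2.5 h arrays overlapped the control. Its 5 h level was 4.38 times the control, a log2 fold of 2.13 ± 0.052 (SE). At the other times the log2 fold was 0.03 to 0.24.

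Cyp2c29, a hepatic enzyme of drugs and arachidonic acid, read 0.375 and 0.402 in the control, 0.260 and 0.285 at 2.5 h, 1.20 and 1.16 at 5 h, 0.199 and 0.260 at 7.5 h, and 0.321 and 0.281 at 10 h. It was above the control only in the 5 h pool, at 3.04 times its level, and every array of the other TSA pools lay below both control arrays. The log2 folds were -0.51 ± 0.083 (SE) at 2.5 h, 1.61 ± 0.055 at 5 h, -0.77 ± 0.20 at 7.5 h and -0.37 ± 0.11 at 10 h.

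Cyp2e1, Cyp2f2 and Cyp2c29 also stood apart from all 4 other pools in the 5 h pool, with a pool mean at least 1 log2 unit above the highest of the others and both arrays above the other 8. Over all compared probes 36 did so, which is 0.485%. No P450 gene stood apart in the 2.5 h, 7.5 h or 10 h pool, where the rule held in either direction for 0%, 0.0135% at most and 0.0404% at most of the probes. The limma test of the 4 TSA pools against control, which looks for a shift shared by all of them, passed none of the 3 (limma, adjusted p = 0.526 for Cyp2e1, 0.607 for Cyp2f2 and 0.996 for Cyp2c29).

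The stretch of 250 bases before the transcription start is shown for Cyp2e1, Cyp2f2, Cyp2c29 and Cyp2c40, a relative of Cyp2c29 described after them. It is also shown for Cyp51, a steroid and sterol gene that met the size rule in no TSA pool. The sequences are from RefSeq, build GRCm38.p6, written 5′ to 3′ along the gene. Capitals mark a CAAAGTC word (of the type bound by HNF4, a hepatocyte nuclear receptor), an AAGGTCA word (the half-site type bound by NR5A1, the steroidogenic factor) or a TATAAA box, each searched on both strands. Cyp2e1 lies at chr7:140763569-140763818 (+), Cyp2f2 at chr7:27119705-27119954 (+), Cyp2c29 at chr19:39286835-39287084 (+), Cyp2c40 at chr19:39812815-39813064 (-) and Cyp51 at chr5:4104698-4104947 (-).
Cyp2e1: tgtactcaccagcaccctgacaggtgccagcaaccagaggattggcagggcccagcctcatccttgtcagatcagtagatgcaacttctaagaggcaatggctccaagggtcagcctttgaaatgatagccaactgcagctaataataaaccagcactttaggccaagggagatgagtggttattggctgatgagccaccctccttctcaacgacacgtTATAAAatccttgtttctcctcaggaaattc
Cyp2f2: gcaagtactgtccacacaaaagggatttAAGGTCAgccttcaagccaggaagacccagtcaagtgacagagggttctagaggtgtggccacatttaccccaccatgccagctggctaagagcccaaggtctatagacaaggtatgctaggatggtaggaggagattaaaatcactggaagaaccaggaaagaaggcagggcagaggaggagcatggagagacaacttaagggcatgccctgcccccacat
Cyp2c29: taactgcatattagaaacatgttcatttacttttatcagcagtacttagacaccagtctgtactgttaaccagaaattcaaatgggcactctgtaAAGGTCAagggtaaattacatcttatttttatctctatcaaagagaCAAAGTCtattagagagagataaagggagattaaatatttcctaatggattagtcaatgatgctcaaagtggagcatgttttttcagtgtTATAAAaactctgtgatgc
Cyp2c40: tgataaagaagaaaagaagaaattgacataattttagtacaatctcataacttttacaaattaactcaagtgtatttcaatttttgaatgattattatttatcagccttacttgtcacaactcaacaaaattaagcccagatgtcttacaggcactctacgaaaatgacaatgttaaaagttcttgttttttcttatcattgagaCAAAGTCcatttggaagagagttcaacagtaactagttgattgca
Cyp51: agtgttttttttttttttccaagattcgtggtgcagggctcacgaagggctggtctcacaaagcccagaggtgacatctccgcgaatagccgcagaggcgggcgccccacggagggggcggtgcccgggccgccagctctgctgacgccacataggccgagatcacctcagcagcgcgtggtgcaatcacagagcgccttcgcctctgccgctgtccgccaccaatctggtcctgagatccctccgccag

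Cyp2c29 held all 3 words, Cyp2c40 the CAAAGTC word, Cyp2f2 the AAGGTCA word and Cyp2e1 the TATAAA box, while the Cyp51 stretch held none of the 3. Of the 48 P450 genes 38 had a promoter entry. CAAAGTC occurred in 11 of the 38, among them 9 of 27 of families 2, 3 and 4, and in 3.84% of all 32851 promoters of the table. AAGGTCA occurred in 3 of the 38 (Cyp2c29, Cyp2c39 and Cyp2f2) and in 4.08% of all. TATAAA occurred in 13 of the 38 and in 12.4% of all. The P450 counts are of genes, with a gene counted if any of its entries held the word. The shares of all are of single promoter entries, so the 2 are not an exact match. Genes with CAAAGTC included dim ones such as Cyp3a11, Cyp3a16 and Cyp2b9, and the members of one subfamily share sequence, so the counts do not come from independent promoters.

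Among the 23 dim probes 4 of families 1 to 4 reached a mean above the intensity limit in the 5 h pool. Cyp2c40 read 0.0328 and 0.0765 in the control, 0.0937 and 0.0744 at 2.5 h, 0.763 and 0.789 at 5 h, 0.132 and 0.226 at 7.5 h, and 0.107 and 0.0973 at 10 h. Set against the intensity limit, its 5 h level was at least 3.75-fold higher than control. The 5 h arrays were well above all others.

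Cyp4a12a, a fatty acid hydroxylase of male liver and kidney, read 0.0248 on both control arrays, 0.0250 and 0.0495 at 2.5 h, 0.306 and 0.293 at 5 h, 0.0717 and 0.0527 at 7.5 h, and 0.0709 and 0.0513 at 10 h. That was at least 1.45-fold higher at 5 h. Cyp1a2, a liver enzyme that breaks down caffeine, read 0.0864 and 0.135 in the control, 0.106 and 0.153 at 2.5 h, 0.349 and 0.372 at 5 h, 0.0988 and 0.228 at 7.5 h, and 0.146 and 0.171 at 10 h, at least 1.74-fold higher at 5 h. For both genes the 5 h arrays lay above the other 8.

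Cyp3a13, an enzyme of drugs and steroids in liver and intestine, followed another course. It read 0.118 and 0.141 in the control, 0.141 and 0.154 at 2.5 h, 0.239 and 0.213 at 5 h, 0.212 and 0.277 at 7.5 h, and 0.260 and 0.225 at 10 h. The arrays from 5 h on were all above the control, and the 5 h pool was not the highest. These 4 probes had no test, and a dim probe named for its 5 h level had to be high there.

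Cyp2c29 and Cyp2c40 are 2 of 6 Cyp2c genes on the arrays, all on chromosome 19, where near copies lie side by side, so a probe of one may also bind RNA of another. The 6 did not follow 1 course. Cyp2c39 read 0.185 and 0.224 in the control and 0.376 and 0.352 at 5 h, with no array of another pool above 0.231. Cyp2c38 was higher than control by 0.76 ± 0.46 (SE) at 5 h on the log2 scale, and as high at 7.5 h (0.82 ± 0.45). Cyp2c37 stayed below the intensity limit on every array, with 0.0543 and 0.0217 in the control and 0.159 and 0.103 at 5 h. Cyp2c55 was lower than control at 5 h.

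Other genes known from hepatocytes were also high in the 5 h pool. Of a hepatocyte list of 64 genes 48 were measured and 26 compared. Of the 26, 20 met the size rule as higher at 5 h, where 1.21% of all probes did, with a median log2 fold of 2.51. The filter on dim probes used the mean over all 10 arrays, so a gene dim elsewhere could be compared through its 5 h level. Apoa1 and Ttr, with 6 and 8 arrays under the intensity limit, are examples. The 5 h count and median therefore depend in part on that filter. At 2.5, 7.5 and 10 h the number higher was 1, 0 and 1. The summed intensity of the 48 genes was 44.7 to 45.3 on the control arrays, 47.8 to 49.2 at 2.5 h, 272.5 to 275.5 at 5 h, 40.6 to 41.0 at 7.5 h and 45.1 to 46.0 at 10 h. Counted pool by pool, 24 of the 48 had both arrays below the intensity limit in the control, 2.5, 7.5 and 10 h pools, and 4 in the 5 h pool. The 24 were not the same genes in every pool.

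Apoa1, the main protein of high-density lipoprotein, averaged 0.0745 in the control and 28.5 at 5 h. Ttr, the thyroid hormone carrier of plasma, read 0.122 and 0.0743 in the control and 18.4 and 19.6 at 5 h. Fabp1, the fatty acid binding protein of liver, read 0.354 and 0.349 in the control, 0.628 and 0.529 at 2.5 h, 33.8 and 32.1 at 5 h, 0.383 and 0.295 at 7.5 h, and 0.348 and 0.390 at 10 h. Ahsg, the plasma protein fetuin, averaged 0.299 in the control, 0.527 at 2.5 h, 10.8 at 5 h, 0.390 at 7.5 h and 0.537 at 10 h. In all 4 TSA pools Ahsg, like Cyp2e1, lay above both control arrays, while Fabp1 overlapped its control at 7.5 and 10 h. The part of hepatocyte RNA in the 5 h values of the P450 genes was not tested.

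Lists for other tissues that express genes of families 2, 3 and 4 had few genes bright enough to compare, beside 26 hepatocyte genes. Dim genes had no call, so the counts of these lists are not an even match to the hepatocyte count. None of the compared genes of kidney (5), lung (3), intestine (3), adrenal cortex (1), epididymis (2) or fat (4) met the size rule in the 5 h pool. The summed intensity of 8 measured lung genes was 1.56 to 1.71 on the control arrays and 1.43 to 1.57 at 5 h, and that of 10 kidney genes 4.19 to 4.22 and 4.56 to 4.62. Of the lung genes 4 were below the intensity limit in the control and 6 at 5 h. Of 6 measured intestinal genes, 3 of them dim, Fabp2, the intestinal fatty acid binding protein, read 0.0380 and 0.0766 in the control and 0.501 and 0.518 at 5 h, and the summed intensity was 5.63 to 5.77 and 5.84 to 5.86. In the testis lists, Sertoli cells (9 compared) and germ cells (15 compared) also had 0 at 5 h. The germ cell sum was 946.0 to 956.3 in the control and 969.0 to 977.8 at 5 h.

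**Figure D2:**
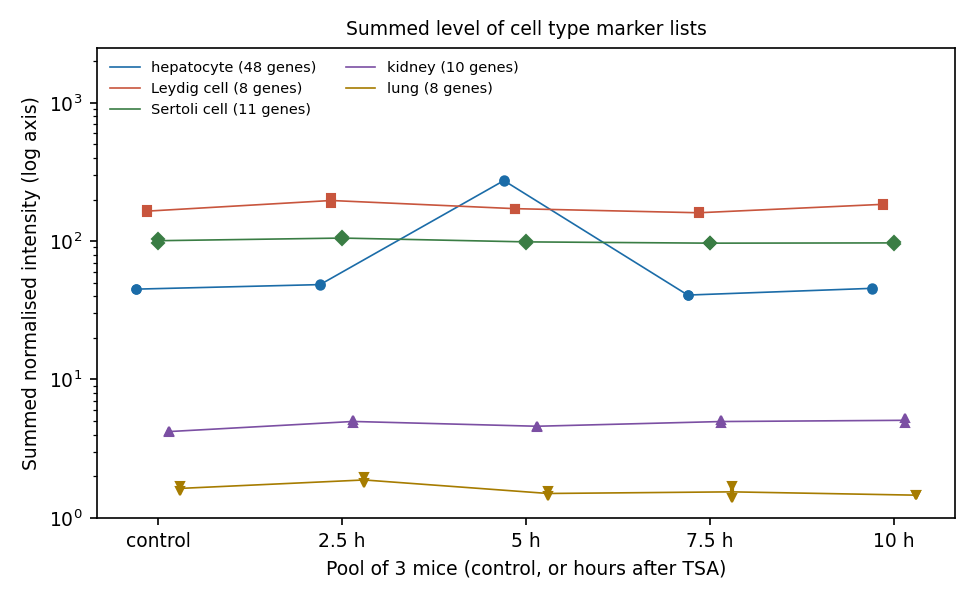
Summed normalised intensity (log axis) of the measured genes of 5 cell type lists in each pool, with points for the 2 arrays and lines through pool means. The hepatocyte sum reaches 272.5 to 275.5 at 5 h and is between 40.6 and 49.2 in the other pools, while the Leydig, Sertoli, kidney and lung sums stay near their control level.

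Family by family, the median log2 fold of the 16 compared genes of families 2, 3 and 4 was 0.09 at 2.5 h, 0.52 at 5 h, 0.13 at 7.5 h and 0.34 at 10 h. That of the 3 genes of families 11, 17 and 51 was 0.27, 0.10, 0.03 and 0.21. At 5 h both arrays lay above both control arrays for 13 of the 16 genes and for 2 of the 3, where 35.8% of all probes did so. The 13 include Cyp2c39 and Cyp2j6, whose means of 0.210 and 0.208 were just over the dim limit of 0.207. That mean includes the 5 h arrays, which were the highest of Cyp2c39, so the 5 h count depends in part on the filter. At 2.5 h the counts were 7 of 16 and 2 of 3 (35.5% of all probes), at 7.5 h 8 of 16 and 1 of 3 (36.5%), and at 10 h 9 of 16 and 2 of 3 (39.8%). Below both control arrays at 2.5, 5, 7.5 and 10 h lay 5, 3, 6 and 4 of the 16 and 0, 0, 1 and 0 of the 3, where 39.8%, 42.8%, 38.6% and 38.6% of all probes did. The difference between the family groups has no test, since genes are not replicates and there is 1 pool a time. Even an exact permutation of 1 pool against 4 could not go below p = 0.2.

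**Figure D3:**
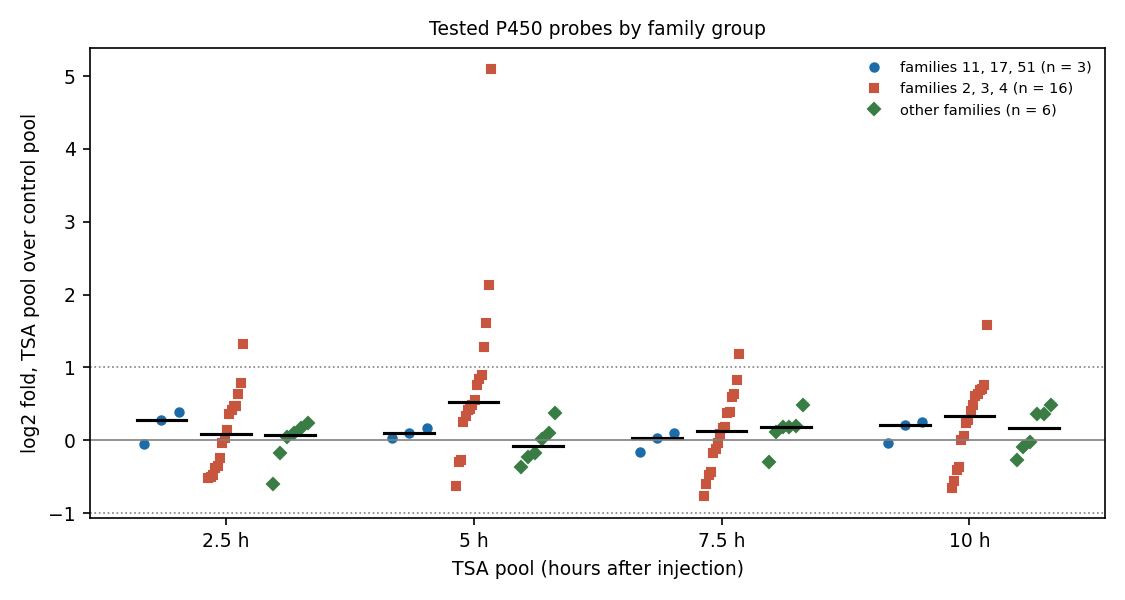
Log2 fold of each compared P450 probe against control (y axis) in the 4 TSA pools (x axis), with circles for families 11, 17 and 51, squares for families 2, 3 and 4 and diamonds for other families; bars are medians and dotted lines the 2-fold limits. The 5 h column of families 2, 3 and 4 reaches 5.09 (Cyp2e1), while no circle leaves the band from -0.16 to 0.38.

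Within families 2, 3 and 4 the spread was wide and lay mostly in family 2. The 13 compared genes of family 2 had 5 h log2 folds from -0.62 to 5.09, with a median of 0.76. Of them 10, Cyp2c39 and Cyp2j6 included, had both arrays above the control, where 35.8% of all probes did. The other 3, Cyp2a12, Cyp2c55 and Cyp2d22, lay below both control arrays at 5 h, where 42.8% of all probes did. Cyp2a12 read 0.391 and 0.357 in the control and 0.283 and 0.342 at 5 h. Cyp2d22 read 0.651 and 0.576 in the control and 0.509 and 0.484 at 5 h. Cyp2d26, a liver enzyme, read 5.71 and 5.20 in the control and 6.22 and 6.80 at 5 h, after 4.32 and 4.23 at 2.5 h. The 3 compared genes of family 4, which hydroxylate fatty acids and leukotrienes, had 5 h log2 folds from 0.44 to 0.55. Of these Cyp4f13 averaged 0.518 in the control and 0.700 at 5 h, and Cyp4f15 0.360 and 0.527. Both were about as high at 10 h, at 0.683 and 0.506. None of the 3 probes of family 3 was bright enough to compare.

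In the limma test of the TSA pools against control 1 P450 gene rose and 1 fell, of 25, at an adjusted p under 0.05. Over all probes 2.74% rose and 0.795% fell, 3.53% in all. At unadjusted p under 0.05 the counts were 8 of 25 P450 genes and 2103 of 7422 probes.

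Cyp2g1, known from the olfactory mucosa, rose by 1.35 ± 0.16 (SE) on the log2 scale (limma, adjusted p = 0.0400), higher in 4 of 4 TSA pools. Its intensity was 0.122 and 0.146 in the control, 0.354 and 0.318 at 2.5 h, 0.315 and 0.334 at 5 h, 0.299 and 0.310 at 7.5 h, and 0.382 and 0.422 at 10 h. All 8 TSA arrays lay above both control arrays, and the control pool stood apart from the other 4 as the lowest, as it did for 0.269% of all probes (it stood highest for 0.0539%). Both control arrays were under the intensity limit, so the size of the difference is not exact, and with an offset of 0.25 added before log2 it was 0.62. Against the limit Cyp2g1 was at least 1.62-fold higher at 2.5 h, 1.57-fold at 5 h, 1.47-fold at 7.5 h and 1.95-fold at 10 h. Its highest pool was the 10 h pool, not the 5 h pool.

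Cyp2c55, an enzyme known from the colon, fell by 0.60 ± 0.11 (SE) on the log2 scale (limma, adjusted p = 0.0481), lower in 4 of 4 TSA pools. It read 2.81 and 2.72 in the control, 1.83 and 2.02 at 2.5 h, 1.85 and 1.74 at 5 h, 1.83 and 1.82 at 7.5 h, and 1.74 and 1.78 at 10 h. The TSA arrays lay within a narrow band below the control, at every time about equally.

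Cyp2d9, a steroid hydroxylase of male mouse liver, was just outside the limit at 0.69 ± 0.14 (SE) on the log2 scale (limma, adjusted p = 0.0530). It read 2.47 and 2.79 in the control, 4.41 and 3.75 at 2.5 h, 4.70 and 5.05 at 5 h, 3.93 and 4.23 at 7.5 h, and 3.78 and 4.19 at 10 h. All TSA arrays were above the control, and the 5 h arrays were the highest. Cyp2c38 followed at 0.67 ± 0.17 (limma, adjusted p = 0.0734) and Cyp2b19, a skin enzyme, at 0.51 ± 0.14 (limma, adjusted p = 0.0884). The control mean of Cyp2c38 was under the intensity limit, so the size of its difference is not exact.

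The calls on Cyp2g1 and Cyp2c55 were close to the limit. Without the 2.5, 5 or 7.5 h pool the adjusted p of Cyp2g1 was 0.0564, 0.0888 and 0.0785, and without the 10 h pool 0.0460. For Cyp2c55 it was 0.0604, 0.102, 0.116 and 0.0623 without the 2.5, 5, 7.5 and 10 h pool. With no filter on dim probes neither passed (limma, adjusted p = 0.125 for both).

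**Figure D4:**
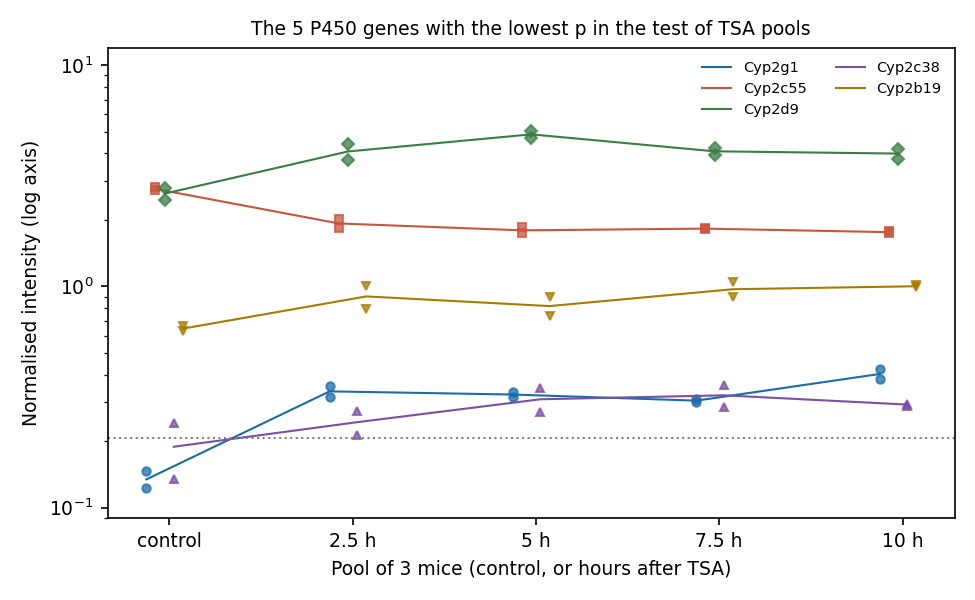
Normalised intensity (log axis) in each pool of the 5 P450 probes with the lowest p in the limma test of TSA pools against control, with points for the 2 arrays, lines through pool means and the dim limit as a dotted line. Cyp2g1, Cyp2d9 and Cyp2b19 lie above their control arrays in all TSA pools and Cyp2c55 below, while 1 control array of Cyp2c38 lies within its 2.5 h values.

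A straight trend over the hours, with the control at 0 h, passed for 0 of the 25 P450 genes (limma, adjusted p under 0.05), where 0.35% of all probes rose with time and 1.66% fell, 2.01% in all. At unadjusted p under 0.05 it was 7 of 25 and 1866 of 7422. With limma on the 10 single arrays, technical duplicates are counted as samples. At an adjusted p under 0.05 that trend test passed 8 of 25 P450 genes and 2353 of 7422 probes.

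The 14 genes outside these families included 6 that were compared, and none met the size rule or passed a test. Cyp27a1, the mitochondrial sterol hydroxylase of bile acid synthesis, averaged 2.16 in the control and 2.42, 2.78, 2.44 and 2.74 at 2.5, 5, 7.5 and 10 h. Cyp27b1, which activates vitamin D, averaged 1.24 in the control and 1.10 to 1.34 in the TSA pools. Cyp46a1, a cholesterol hydroxylase known from brain, averaged 1.51 in the control and 1.49 to 1.78. Cyp39a1, an oxysterol hydroxylase, averaged 0.963 in the control and 0.633 to 0.799 in the TSA pools, each below both control arrays.

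Cyp1b1, which hydroxylates estrogens, averaged 0.933 in the control and 0.955, 0.940, 1.06 and 1.30 at 2.5, 5, 7.5 and 10 h, highest at 10 h. Cyp1a1, a target of the aryl hydrocarbon receptor, averaged 0.246 in the control and 0.264, 0.210, 0.346 and 0.317. It was the P450 gene of family 1 that lay below both control arrays at 5 h.

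The 8 dim genes of these families, Cyp1a2 and Cyp21a1 among them, include the bile acid enzymes. Cyp7b1, an oxysterol hydroxylase, read 0.0503 and 0.0245 in the control and 0.207 and 0.138 at 5 h, and Cyp8b1, which sets the kind of bile acid made, read 0.0358 and 0.0203 in the control and 0.201 and 0.139 at 5 h. In Cyp7b1 no array of another pool reached above 0.0519. One 7.5 h array of Cyp8b1 read 0.183. Cyp7a1, the rate-limiting enzyme of bile acid synthesis, read 0.0696 and 0.0542 in the control and 0.0111 and 0.0312 at 5 h. Cyp24a1 and Cyp26a1, which break down vitamin D and retinoic acid, and Cyp20a1 did not exceed 0.149 on any array.

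The supply of electrons and heme to the P450 enzymes was read from 15 measured genes of 21, all compared. At 5 h none met the size rule. At 2.5 h 1 did, Cpox, an enzyme of heme synthesis, where 0.674% of all probes were higher by this rule. Cpox read 0.209 and 0.173 in the control, 0.440 and 0.409 at 2.5 h, 0.390 and 0.343 at 5 h, 0.325 and 0.376 at 7.5 h, and 0.261 and 0.227 at 10 h. Its control mean of 0.191 was under the intensity limit, so at 2.5 h it is only known to be at least 2.05-fold higher. None of the 15 passed the test of the TSA pools, and the median log2 fold at 5 h was 0.03.

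Among receptors and transcription factors that control P450 genes, 28 of 34 were measured and 16 compared, and none met the size rule in any pool or passed the test. Their median log2 fold was 0.16, 0.27, 0.21 and 0.46 at 2.5, 5, 7.5 and 10 h. Ppara, the fatty acid receptor that controls Cyp4a genes, averaged 0.159 in the control, under the intensity limit, and 0.226 at 5 h, which is at least 1.09-fold higher.

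Of 71 conjugating and other drug-metabolising enzymes 47 were measured and 33 compared. None met the size rule at any of the 4 times. In the test of the TSA pools 1 of the 33 fell and 0 rose, where 0.795% of all probes fell and 2.74% rose. The median log2 fold at 5 h was 0.17. The largest 5 h values were those of Mgst1 and Gstp1, which conjugate glutathione, at 0.82 ± 0.087 and 0.78 ± 0.057 (SE), Gsto1 at 0.76 ± 0.012 and the alcohol dehydrogenase Adh1 at 0.71 ± 0.040 on the log2 scale. Mgst1 averaged 5.56 in the control, 9.82 at 5 h and 6.06 to 7.11 at the other times.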

How the data were processed

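The 10 CodeLink arrays (1 channel, Cy5) held testis RNA of 15 mice as 5 pools of 3, with 2 arrays a pool. The deposited values were linear normalised intensity values of 10012 probes, 9897 of them with values. Once sorted, the 10 arrays held the same values (largest difference 0), so they had been quantile normalised by the authors before deposit, as the values themselves show. Not given in the sources used here are the scanner software, the background correction, the normalisation program and the build. Counting depth has no meaning for arrays; their number limits precision.

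P450 probes were taken by symbol from the platform table, in which 8983 probes carry 1 symbol, 1 several and 1028 none. Each P450 gene had 1 probe. The members, gene lists and tests were chosen with earlier results of these data known. Values under the 5th percentile were set to it (0.0364) and log2 was taken. The dimmest 25% of probes, by mean log2 value, entered no call or test, which left 7422. Duplicate arrays were averaged. limma 3.58.1 in R 4.3.3 was run on the 5 pool means (3 residual degrees of freedom, the lone control pool taken to vary like the TSA pools), with Benjamini-Hochberg adjustment over all compared probes, an adjusted p under 0.05 as the limit, and two-sided p-values. A fold of a probe whose control arrays were dim is a lower bound: the TSA pool mean over the intensity limit of 0.207. Same-numbered arrays were not treated as pairs, since their deviations from pool means correlated between -0.187 and 0.14 over 10 pairs of pools. Both tests were tested on simulated data.

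Named in full were the probes of families 11, 17, 21 and 51, those that met the size rule, stood apart in 1 pool or passed a test, and dim ones above the limit at 5 h. Of the rest, up to 2 of the brightest a family were named, and up to 4 a list with the largest 5 h fold plus a few fixed genes. Cyp2c38, Cyp2c39, Cyp2c37, Cyp2d9, Cyp2b19, Cyp1b1, Cyp1a1, the dim bile acid genes, Hsd3b5, Hsd11b1 and Fabp2 were picked after their values were seen where the rule did not name them. So were Cyp2a12, Cyp2d22 and Cyp2j6. Alternatives were other filters, an offset of 0.25, centring by probe ID in 50 bins, other fold limits, pools or replicate numbers left out, and other limma models; leaving out single arrays was added after seeing the data. Figures were drawn with matplotlib 3.10.9.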

Additional observations from a re-analysis of the deposited data

Results flagged for a closer look

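For 7 P450 genes both arrays of a TSA pool lay above both control arrays at one time and below them at another, and these differences between pools were not tested. Cyp2c29 had a log2 fold of 1.61 at 5 h and of -0.51, -0.77 and -0.37 at 2.5, 7.5 and 10 h. Cyp2c39, another Cyp2c gene, had 0.84 at 5 h and -0.43 at 7.5 h. Its control mean of 0.205 and its 7.5 h arrays, 0.179 and 0.128, were under the intensity limit, so these sizes are not exact. Cyp1a1 went the other way, with -0.23 at 5 h and 0.10, 0.49 and 0.37 at 2.5, 7.5 and 10 h. Cyp2d26 had 0.25 at 5 h and -0.35 at 2.5 h. Cyp4f15 had 0.55 at 5 h, 0.49 at 10 h and -0.18 at 7.5 h. Among the steroid and sterol genes Cyp11a1 had 0.38 at 2.5 h, 0.16 at 5 h and -0.16 at 7.5 h. Cyp27b1 had 0.12 at 7.5 h and -0.17 at both 2.5 h and 5 h. Each pool was read on 2 technical arrays, and 38.6 to 42.8% of all probes lay below and 35.5 to 39.8% above the control in this way at each time. The share of all probes that lay on both sides at different times was not counted. The count of 7 therefore cannot be read as particular to P450 genes.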

How the results depend on the processing

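The number of P450 genes past the size rule (1, 4, 1 and 1 at 2.5, 5, 7.5 and 10 h) became 10, 5 and 3 at 5, 7.5 and 10 h with no filter on dim probes, and 0, 2, 0 and 0 with the lowest 50% left out. With no filter the counts are of 48 probes, and every gene added was a dim one. The share of all probes was not counted at these other settings, so the changed counts are not set against it. A 1.5-fold limit gave 4, 8, 6 and 7, and a 3-fold limit gave 0 at 2.5 and 7.5 h. The offset gave 0 at 2.5, 7.5 and 10 h, and centring by probe ID gave 2 at 2.5 h. With 1 array or 1 replicate number of every pool left out the count was 4 to 6 at 5 h and 1 to 2 at 7.5 and at 10 h. The genes standing apart at 5 h numbered 8 with no filter, and those in another pool 2 with no filter or a 1.5-fold limit and 0 with the lowest 50% left out, the offset or a 3-fold limit.

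The test of TSA pools passed 2 genes. It passed 0 with no filter, 0 to 4 with 1 array or replicate number left out, 0 without the 2.5, 5 or 7.5 h pool, 1 without the 10 h pool, and 5 when pools were a random block. Over all probes it passed 262 of 7422, 1 of 9897 with no filter, and 1044 of 7422 with the random block. With 1 array or replicate number left out it passed 1 to 496 of 7422. Without the 2.5, 5, 7.5 and 10 h pool it passed 3, 3, 6 and 7. The array numbers did not pair arrays, and limma on single arrays gave 8 with the replicate block and 8 without it, for the test of TSA pools and likewise for the trend, where the random block gave 2. Over all 7422 probes these array models passed 2388 with the block and 2660 without it in the test of TSA pools. For the trend they passed 2111 and 2353, and the random block passed 719. Cyp11a1 turned to -0.033 without replicate 1, -0.020 without control replicate 1 and -0.0087 without the 2.5 h pool, and Cyp17a1 to -0.062 with centring by probe ID.

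The median fold of families 11, 17 and 51 became 0.0023, -0.076 and 0.085 at 5, 7.5 and 10 h with centring by probe ID. With 1 array or replicate number left out it ran from 0.023 to 0.14 at 5 h and 0.16 to 0.25 at 10 h. That of families 2, 3 and 4 at 5 h was 0.44 with no filter, 0.89 with the lowest 50% left out, 0.33 with the offset and 0.60 with centring. At 7.5 h these gave 0.20, 0.18, 0.079 and 0.21, and at 10 h the lowest 50% left out and the offset each gave 0.24. With 1 array or replicate number left out it ran from -0.011 to 0.17, 0.51 to 0.55, 0.058 to 0.13 and 0.29 to 0.45 at 2.5, 5, 7.5 and 10 h. Causes of these changes were not tested.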

Other observations

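Some P450 genes known from liver, picked after their values were seen, did not leave the dim range at 5 h. Cyp3a11, a main enzyme of drug breakdown in mouse liver, read 0.0583 and 0.0777 at 5 h and 0.0720 and 0.0253 in the control, with its highest value, 0.241, at 7.5 h. Cyp4a14, a fatty acid hydroxylase that is induced through Ppara, read 0.0221 and 0.0395 at 5 h and 0.0140 and 0.0250 in the control. Cyp2j5, an enzyme of arachidonic acid, read 0.0646 and 0.0542 at 5 h and 0.0432 and 0.0227 in the control. Cyp2b9 read 0.159 and 0.133 at 5 h, beside 0.149 and 0.120 at 10 h, and Cyp2b13 read 0.0236 and 0.0369 at 5 h, within the range of the other pools. How well each of these probes detects its RNA was not tested.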
